A study of Mus musculus with 4 samples.

Results

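The bone marrow stromal lineage genes are 10 genes used to recognise the non-blood cells of the marrow: Cxcl12, Kitl, Pdgfra, Pdgfrb, Lepr, Runx2, Sp7, Prrx1, Twist1 and Alpl. They were picked by symbol, with no measured value in the rule, but earlier results of these data were known when they were chosen. Each symbol matched 1 of the 34745 genes in the deposited table. Their RNA was measured in cultured bone marrow-derived macrophages (BMDMs), in 4 libraries, of which 2 were labelled WT and 2 were labelled KO. The WT mice carried a floxed G3bp1 gene (G3bp1 f/f) and no Cre is named for them. The KO mice (G3bp1mac-/-) carried the floxed gene with Lyz2-Cre, a recombinase driven by a promoter of the myeloid lineage, so that G3bp1 was to be deleted in macrophages and other myeloid cells and not in stromal cells. All cells were grown in DMEM with serum, with no further treatment named, and the age and sex of the G3bp1 f/f and G3bp1mac-/- mice used for these libraries were not found in the sources used here.

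Stromal cells of the marrow line its vessels and bone surfaces and feed blood formation. CXCL12 and the KIT ligand, which they release or display, keep stem and progenitor cells in place and alive, and the leptin receptor and the PDGF receptors mark the reticular cells and their progenitors. RUNX2, then SP7, commit such progenitors to bone, alkaline phosphatase (ALPL) is made as they mature into osteoblasts, and PRRX1 and TWIST1 are transcription factors of limb and skull mesenchyme. Macrophages grown from marrow are blood cells and are not the usual source of most of these RNAs, although a marrow culture can hold adherent stromal cells.

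Total counts were between 16724241 and 19747909 per library. G3bp1, the targeted gene, had 104 and 180 CPM (counts scaled to a library of 1000000, on totals adjusted by edgeR's TMM factors) in WT and 70.1 and 117 in KO. The groups overlapped. The fitted log2 fold change (KO over WT throughout) was -0.61 (SE 0.40, n = 2 per genotype), with an adjusted p from edgeR's quasi-likelihood test of 0.904. The KO library was lower than the WT library of the same number in each case (log2 ratios of -0.57 and -0.63). Counts over the whole gene do not show which exons were read, so the rest of the G3bp1 RNA in the KO libraries was not traced to the deleted part. The paper reports efficient loss of G3BP1 in macrophages of G3bp1mac-/- mice, with its mRNA and protein measured in BMDMs. Whether those were the cultures of these libraries was not found in the sources used here. Macrophage markers were abundant in every library: Lyz2 had between 297591 and 383749 counts, Csf1r between 6297 and 10867 and Adgre1 (F4/80) between 5911 and 13316. The labels do not say that libraries came from separate mice or cultures, so p-values measure only the spread between these samples, which may be technical. WT and KO below mean the libraries so labelled.

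In these macrophage cultures, Cxcl12, Pdgfra, Prrx1 and Twist1 had a higher CPM in each KO library than in either WT library, while Kitl, Pdgfrb and Runx2 had overlapping groups. The fitted difference was largest for Cxcl12 (6.32-fold) and Pdgfra (4.21-fold). Alpl was near the detection limit, Lepr was seen in 1 library only, and no read was counted for Sp7. The 10 genes together summed to 51.2 and 42.3 CPM in WT and 115 and 103 CPM in KO. In a bulk culture, fewer cells of a type and less RNA per cell cannot be told apart.

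No member passed edgeR's quasi-likelihood test with genotype as its only term. Calls needed an adjusted p under 0.05 together with a log2 fold change beyond 1 in size. By edgeR's quasi-likelihood test, 0 of the 7 members with enough counts to be tested were called, and 0% of all 12418 genes tested. At an unadjusted p under 0.05, 4 members were higher in KO and 0 lower, beside 4.64% of all genes tested that were higher. Both KO libraries exceeded both WT libraries in 4 of the 7 tested members and in 20.0% of all genes tested, and also in Alpl, which was not tested. With edgeR's exact test 2 members, Cxcl12 and Pdgfra, were called higher, beside 1.16% of all genes, and with DESeq2's Wald test the same 2 were called, beside 1.10%. Over all genes, edgeR's quasi-likelihood test gave 823 at an unadjusted p under 0.05, and the exact and Wald tests called 174 and 181 genes in either direction. The median fitted log2 fold change was 1.32 over the 7 members and 0.04 over all genes tested. Twist1 passed the filter on low counts only through its KO libraries and Pdgfrb with 1 of its 2 WT libraries, so their presence among the 7 is not free of the comparison. The other 5 had both WT libraries past the filter. The members were chosen with earlier results of these data known, so their counts beside the shares of all genes are description only.

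**Figure D1:**
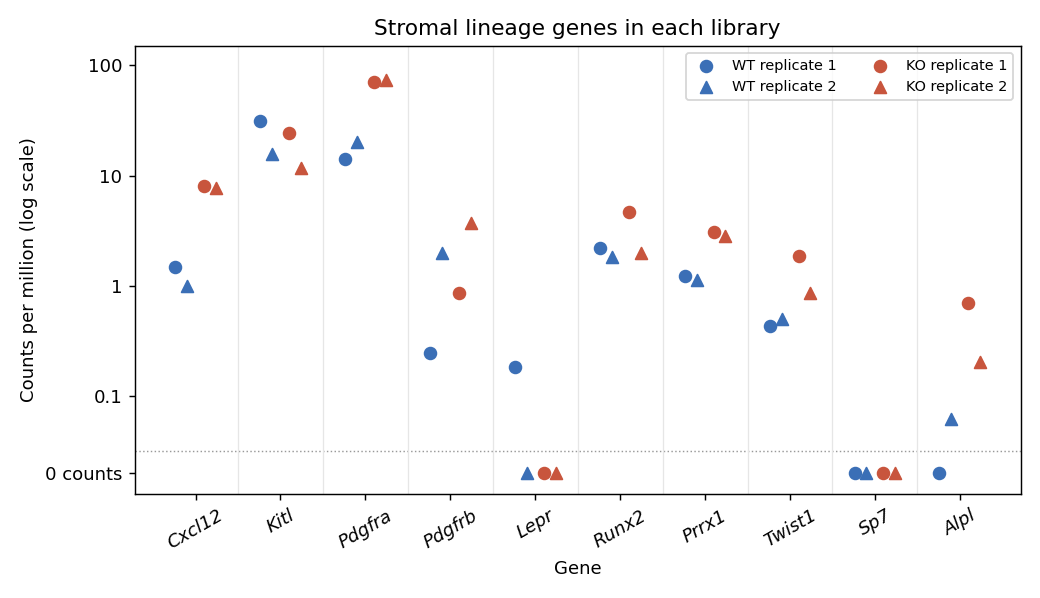
CPM of the 10 genes in each library, on a log scale (circles, replicate 1 and triangles, replicate 2, with WT in blue and KO in red); points under the dotted line had 0 counts. The KO points of Cxcl12, Pdgfra, Prrx1 and Twist1 lie above both WT points, and those of Kitl, Pdgfrb and Runx2 do not.

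The first group by role is the secreted or displayed factors. Cxcl12 (ENSMUSG00000061353, chr6:117168535-117181367, plus strand) encodes the chemokine that retains CXCR4-bearing cells in the marrow. It had 24 and 16 counts (WT) and 151 and 151 counts (KO), or 1.48 and 1.00 CPM against 8.10 and 7.67 CPM. Both KO libraries were well above both WT libraries, and the replicates of each genotype lay close together (1.24 ± 0.336 CPM in WT and 7.88 ± 0.305 in KO, SD, n = 2). The log2 fold change was 2.66 (SE 0.36, 95% interval 1.75 to 3.57), and the adjusted p from edgeR was 0.216. Between libraries of the same number the log2 ratio was 2.43 for replicates 1 and 2.89 for replicates 2. Leaving out any 1 library kept it between 2.37 and 2.97. The gene was still scarce in every library, at no more than 0.697 FPKM (fragments per kilobase of gene and 1000000 fragments counted, as deposited).

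Kitl (ENSMUSG00000019966, chr10:100015630-100100413, plus strand) encodes the KIT ligand, or stem cell factor. It had 508 and 249 counts (WT) and 459 and 232 counts (KO), or 31.3 and 15.6 CPM against 24.6 and 11.8 CPM. The 2 genotypes overlapped: each number 1 library lay above each number 2 library, whatever its label. Its log2 fold change was -0.37 (SE 0.49, interval -1.62 to 0.89), and the adjusted p from edgeR was 0.964. Its sign turned without WT replicate 1 (0.22) and without KO replicate 2 (0.063). Within the replicate numbers the log2 ratio was -0.35 and -0.41, so the KO library was slightly lower in each. Replicate 2 was lower than replicate 1 by a log2 ratio of -1.001 in WT and -1.06 in KO, which is more than the difference between the genotypes.

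The second group is the receptors. Pdgfra (ENSMUSG00000029231, chr5:75152292-75198215, plus strand) encodes a receptor tyrosine kinase that marks mesenchymal progenitors and fibroblasts. It had 229 and 321 counts (WT) and 1320 and 1448 counts (KO), or 14.1 and 20.1 CPM against 70.8 and 73.5 CPM. The KO libraries were alike and stood far above both WT libraries (17.1 ± 4.26 CPM in WT and 72.2 ± 1.93 in KO). In the fit the log2 fold change was 2.07 (SE 0.28, interval 1.37 to 2.78), and the adjusted p from edgeR was 0.216. The log2 ratio was 2.32 between replicates 1 and 1.87 between replicates 2, and without any 1 library it stayed between 1.84 and 2.32. Pdgfra had the most counts of the members in KO, and its count difference made up most of the summed difference of the 10 genes.

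Pdgfrb (ENSMUSG00000024620, chr18:61045150-61085061, plus strand) encodes the related receptor of pericytes and perivascular stromal cells. It had 4 and 32 counts (WT) and 16 and 73 counts (KO), or 0.246 and 2.01 CPM against 0.858 and 3.71 CPM. The groups overlapped, and the libraries differed more by number than by genotype, since replicate 2 exceeded replicate 1 by a log2 ratio of 2.88 in WT and 2.08 in KO. In the fit the log2 fold change was 1.02 (SE 1.08, interval -1.72 to 3.76), and the adjusted p from edgeR was 0.961. It was 3.15 without WT replicate 2, 0.19 without WT replicate 1 and -0.40 without KO replicate 2. Between libraries of the same number it was 1.67 and 0.87, with the KO library higher in each.

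Lepr (ENSMUSG00000057722, chr4:101717404-101815352, plus strand) encodes the leptin receptor, the usual marker of the reticular cells that make most of the marrow's CXCL12. Its counts were 3 and 0 in WT and 0 and 0 in KO, too few to be tested. A count of 0 allows up to 3 counts, which was between 0.152 and 0.188 CPM over the libraries (these limits cover counting error only, since no molecular identifiers are named for these reads). All 4 libraries were at or under that limit, so no fold is given. No Lepr read was thus counted in the KO libraries, in which Cxcl12 had 151 counts each.

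**Figure D2:**
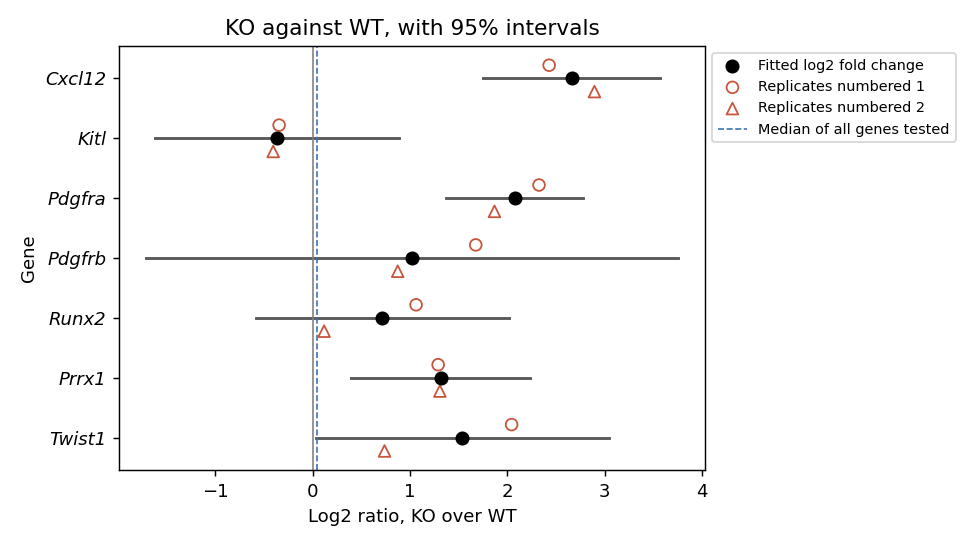
Fitted log2 fold change, KO over WT, of the 7 genes tested (filled circles) with its 95% interval (bars), and the log2 ratio between libraries numbered 1 (open circles) and numbered 2 (open triangles). The intervals of Cxcl12, Pdgfra, Prrx1 and Twist1 lie above 0 before adjustment, while those of Kitl, Pdgfrb and Runx2 span it; the dashed line is the median of all genes tested, 0.04.

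The third group is the transcription factors. Runx2 (ENSMUSG00000039153, chr17:44495987-44814797, minus strand) encodes the factor that starts bone formation. It had 36 and 29 counts (WT) and 87 and 39 counts (KO), or 2.22 and 1.82 CPM against 4.67 and 1.98 CPM. In CPM only KO replicate 1 stood apart, and KO replicate 2 lay between the WT libraries. The log2 fold change was 0.72 (SE 0.51, interval -0.59 to 2.02), and the adjusted p from edgeR was 0.927. Without KO replicate 1 the log2 fold change was -0.025. The log2 ratio was 1.06 between replicates 1 and 0.12 between replicates 2. Runx2 is overlapped on the other strand by Supt3, which had 149 and 103 counts (WT) and 139 and 99 counts (KO), and by Runx2os1, which had 10 and 2 in WT and 8 and 7 in KO. Whether the counting used strand was not given in the sources used here, so reads of these genes and of Runx2 may not be told apart.

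Prrx1 (ENSMUSG00000026586, chr1:163245119-163313710, minus strand) encodes a homeobox factor of limb bud mesenchyme and of fibroblasts derived from it. It had 20 and 18 counts (WT) and 57 and 56 counts (KO), or 1.23 and 1.13 CPM against 3.06 and 2.84 CPM. Replicates were close within each genotype (1.18 ± 0.0730 CPM in WT and 2.95 ± 0.151 in KO), and the groups did not overlap. Its log2 fold change was 1.32 (SE 0.36, interval 0.40 to 2.24) and its fold 2.49, and the adjusted p from edgeR was 0.452. Between libraries of the same number the log2 ratio was 1.29 and 1.31, the most even pair among the members with KO above WT.

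Twist1 (ENSMUSG00000035799, chr12:33957671-33959817, plus strand) encodes a helix-loop-helix factor that keeps mesenchymal cells from maturing. It had 7 and 8 counts (WT) and 35 and 17 counts (KO), or 0.431 and 0.502 CPM against 1.88 and 0.863 CPM. Both KO libraries were above both WT libraries, and KO replicate 1 was far above KO replicate 2. The log2 fold change was 1.54 (SE 0.59, interval 0.031 to 3.04), and the adjusted p from edgeR was 0.736. Leaving out KO replicate 1 gave 0.88, and leaving out KO replicate 2 gave 1.99.

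Sp7 (ENSMUSG00000060284, chr15:102356609-102366325, minus strand) encodes osterix, the factor that acts after RUNX2 in osteoblasts. It had 0 counts in each of the 4 libraries. The same limit of 0.152 to 0.188 CPM holds, so a level up to it may have gone uncounted at this depth.

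The last member is an enzyme. Alpl (ENSMUSG00000028766, chr4:137741733-137796384, minus strand) encodes the alkaline phosphatase that frees phosphate for mineral. It had 0 and 1 counts (WT) and 13 and 4 counts (KO), and failed the filter on low counts. The ratio of summed counts, each divided by the summed TMM-scaled library totals, was 14.3 with an exact binomial 95% interval of 2.24 to 596, which covers counting error only. Most of its KO counts came from replicate 1, the library in which Runx2 and Twist1 were also higher than in KO replicate 2.

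For the 4 tested members with KO above WT, the ratio of summed counts, KO over WT and again per summed TMM-scaled library total, was 6.34 for Cxcl12 (exact binomial 95% interval 4.55 to 9.05), 4.22 for Pdgfra (3.85 to 4.64), 2.91 for Twist1 (1.61 to 5.56) and 2.50 for Prrx1 (1.71 to 3.71). On counting error alone, the intervals of Cxcl12 and Prrx1 did not overlap, nor did those of Pdgfra and Prrx1. Pdgfra and Cxcl12 overlapped narrowly. These intervals leave out the spread between replicates, and the fitted 95% intervals of the 4 members all overlapped, so a difference in size between them was not shown.

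The promoters of these 4 members are shown because their libraries fell apart by genotype. RefSeq promoter windows on GRCm38.p6 were searched for 8 members, and the bases before the annotated start are printed 5′ to 3′ in the direction of the gene. Pdgfrb was left out of the search, and no window was matched for Sp7. For Prrx1 the window was cut where the deposited gene starts, which lies upstream of the RefSeq start. Capitals mark matches to the GC box GGGCGG, the E-box CANNTG and the TATA box TATAAA on either strand.
Cxcl12 promoter, chr6:117168285-117168534, plus strand: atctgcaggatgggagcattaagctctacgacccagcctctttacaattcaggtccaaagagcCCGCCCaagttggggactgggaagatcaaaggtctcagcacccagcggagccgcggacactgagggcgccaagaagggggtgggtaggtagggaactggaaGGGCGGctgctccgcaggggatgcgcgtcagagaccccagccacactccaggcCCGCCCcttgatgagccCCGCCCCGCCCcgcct
Pdgfra promoter, chr5:75152001-75152250, plus strand: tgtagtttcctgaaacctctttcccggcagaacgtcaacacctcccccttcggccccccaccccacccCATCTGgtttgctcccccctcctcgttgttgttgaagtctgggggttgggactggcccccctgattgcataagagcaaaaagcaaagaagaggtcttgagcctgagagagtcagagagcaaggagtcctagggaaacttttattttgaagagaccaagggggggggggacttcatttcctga
Prrx1 promoter, chr1:163313711-163313900, minus strand: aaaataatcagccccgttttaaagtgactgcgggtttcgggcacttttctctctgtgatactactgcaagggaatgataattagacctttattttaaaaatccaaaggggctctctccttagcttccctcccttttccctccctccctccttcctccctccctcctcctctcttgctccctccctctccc
Twist1 promoter, chr12:33957421-33957670, plus strand: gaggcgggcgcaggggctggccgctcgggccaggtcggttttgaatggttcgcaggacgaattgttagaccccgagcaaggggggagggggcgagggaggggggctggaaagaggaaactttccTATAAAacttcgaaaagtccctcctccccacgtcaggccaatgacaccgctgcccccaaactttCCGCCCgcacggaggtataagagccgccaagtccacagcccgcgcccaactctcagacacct
The Cxcl12 window held 5 GC boxes, 2 of which share a base, with no E-box and no TATA box. The Pdgfra window held 1 E-box and none of the other motifs. The Twist1 window held 1 GC box and 1 TATA box, at 62 and 126 bases before the start. No match to any of them, or to the RUNX motif TGTGGT, was found in the 250 bases before the Prrx1 start. The 4 windows thus had no motif in common among those searched. Of 32851 mouse promoter windows of the same length, 32.7% held a GC box, 66.2% an E-box, 12.4% a TATA box and 14.0% the RUNX motif. Of the other members searched, the RUNX motif was found only in the Runx2 window, where it overlapped an E-box.

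Per length, the order of the members differed between the genotypes at its top. Mean FPKM in WT was highest for Kitl (3.36), then Pdgfra (1.08) and Twist1 (0.274), and these 3 did not overlap their neighbours. Pdgfrb, Runx2, Cxcl12 and Prrx1 followed at means between 0.0701 and 0.138, and each overlapped the next. In KO, Pdgfra came first (5.09) and Kitl second (2.95), with no overlap between their libraries. Twist1 (0.914) and Cxcl12 (0.644) overlapped each other, and Pdgfrb, Runx2 and Prrx1 followed between 0.196 and 0.303, each overlapping the next. Cxcl12 thus overlapped Runx2 and Prrx1 in WT and lay above both of them in KO.

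In Kitl and Pdgfrb, the difference between the replicates of each genotype was larger than that between the genotypes within either number, and the direction was opposite in these 2 genes. In Runx2 this held in KO (a log2 ratio of -1.23) and not in WT (-0.28). The 2 pairs are few, and the labels do not say what the number marks. Cxcr4, which encodes the CXCL12 receptor, differed by number in the direction of Kitl, with 2580 and 447 counts (WT) and 2526 and 713 counts (KO). Adgre1 and Csf1r had more counts in replicates 2 than in replicates 1 of each genotype, as Pdgfrb did.

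**Figure D3:**
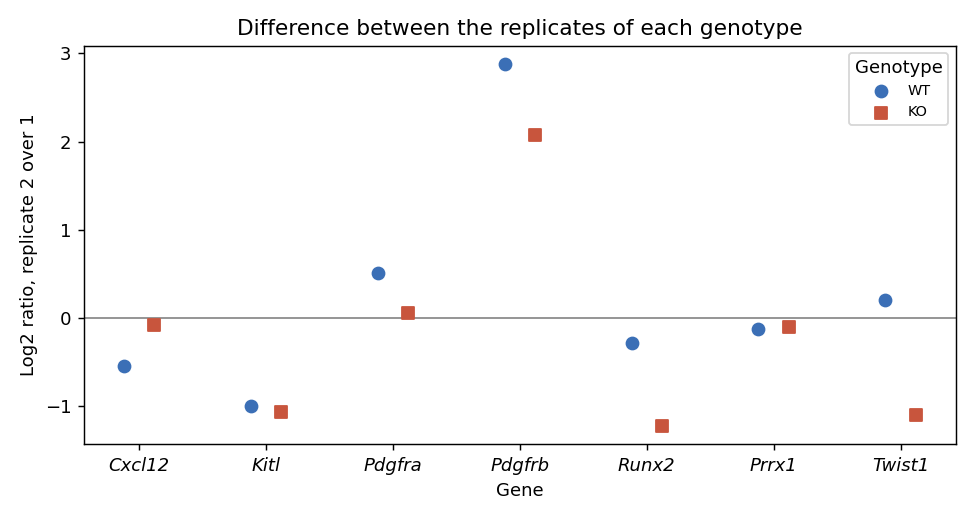
Log2 ratio of replicate 2 to replicate 1 within WT (blue circles) and within KO (red squares) for the 7 genes tested. Kitl lies near -1 and Pdgfrb above 2 in both genotypes, while Prrx1 lies near 0 in both; Runx2 and Twist1 are below -1 in KO only.

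Ligands, receptors and partners of the members formed a list of 17 genes, of which 14 were tested. At an unadjusted p under 0.05, 0 were higher and 0 were lower, and the median log2 fold change was 0.11. The KO libraries were both above the WT libraries in 2 of the 14, Tcf3 and Tcf4, which encode partners of TWIST1, beside 20.0% of all genes tested. They were both below in 1, Leprot, the neighbour of Lepr, beside 16.9% of all genes tested, so neither count exceeded its background. Cxcr4 had a log2 fold change of -0.12 (SE 0.95). Kit, the receptor of the KIT ligand, had 25 and 50 counts (WT) and 25 and 36 counts (KO). Pdgfa, which encodes a ligand of PDGFRA, had 613 and 444 counts (WT) and 778 and 530 counts (KO), with a fitted log2 difference of 0.06 (SE 0.32). Pdgfb, the main ligand of PDGFRB, had 53 and 118 counts (WT) and 102 and 210 counts (KO), with a fitted log2 difference of 0.60 (SE 0.54) and overlapping groups. The groups overlapped in 11 of the 14 tested genes of the list.

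Markers of other cell types that a marrow culture could hold were read beside the members. Their lists, like the members, were chosen with earlier results of these data known. None of them was called by edgeR's quasi-likelihood test, and the counts that follow are at an unadjusted p under 0.05, where 4.64% of all genes tested were higher in KO. Of 10 tested fibroblast genes, 8 were higher in KO and 0 lower, with a median log2 fold change of 1.73, and of the 20 listed Meox1 was at 0 throughout. The summed level of that list was 297 and 925 CPM in WT and 461 and 801 in KO, and 1 gene carried it: Pdpn, also made by other cells, had 231 and 853 CPM in WT and 185 and 562 in KO. The other listed genes summed to 66.0 and 72.1 CPM in WT and 276 and 239 in KO, so without Pdpn the genotypes lay apart. Lum, Fbln1 and Loxl1 passed the filter through their KO libraries only, and 2 of these 3 are among the 8, so that count is not free of the comparison. Col1a2, a chain of type I collagen, had 161 and 190 counts (WT) and 1317 and 1016 counts (KO), and Loxl1, which cross-links elastin, had 4 and 8 in WT and 83 and 64 in KO. Of 5 tested genes of smooth muscle cells and pericytes, 4 were higher, and all 5 had both KO libraries above both WT libraries (20.0% of all genes tested), but Mylk and Kcnj8 were tested through their KO libraries only. The 10 listed genes of these cells summed to 12.3 and 12.5 CPM in WT and 52.7 and 57.8 in KO. Rgs5, Notch3, Cnn1, Abcc9 and Myh11 had too few counts to be tested. Myh11 had the most of them, with 1 and 2 counts (WT) and 11 and 5 counts (KO), and Rgs5 had 1 and 0 in each genotype. Acta2, smooth muscle actin, had 84 and 79 counts (WT) and 475 and 561 counts (KO). Cxcl12 and Pdgfra were thus higher in the same libraries as these collagen and smooth muscle genes, and the part of such cells in the members' values was not tested.

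The defining genes of bone, fat and cartilage cells were at or near 0. Of 18 osteoblast and osteocyte genes, 11 had 0 counts in all 4 libraries, among them Bglap, Ibsp, Dmp1 and Sost, and 4 were tested. The list summed to 4.25 and 4.83 CPM in WT and 9.92 and 5.99 in KO. Postn, also made by fibroblasts, was the 1 osteoblast gene higher at an unadjusted p under 0.05, with 6 and 10 counts (WT) and 67 and 49 counts (KO). Tnfsf11, tested through its KO libraries only, had 0 and 7 counts (WT) and 11 and 19 counts (KO). Of 6 adipocyte genes, 5 were at 0 in every library and the other, Retn, had 2 counts in KO replicate 2. Of 7 chondrocyte genes, 5 were at 0, and the list summed to no more than 1.12 CPM in any library. Sox9 was the 1 tested, through its KO libraries only, with 6 and 7 counts (WT) and 14 and 22 counts (KO).

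Genes of reticular niche cells other than the members were mixed. Of 15, Foxc1 and Adipoq were at 0 in all libraries and 7 were tested, with 2 higher and 0 lower and a median log2 fold change of 0.76. The 2 that were higher were Nes, with 33 and 34 counts (WT) and 151 and 144 counts (KO), and Grem1, with 3 and 3 in WT and 12 and 15 in KO, which was tested through its KO libraries only. The list's summed level ranged from 12.1 to 80.2 CPM in WT and from 29.3 to 76.2 in KO, and its overlap came from Vcam1, an adhesion molecule, at 2.53 and 63.5 CPM in WT and 6.33 and 48.5 in KO. Without Vcam1 the list summed to 9.61 and 16.7 CPM in WT and 23.0 and 27.7 in KO, which did not overlap. Both KO libraries were above both WT libraries in 3 of the 7 tested genes (20.0% of all genes tested) and below in 1 (16.9%). Csf1 was among the 3, with 74 and 175 counts (WT) and 211 and 296 counts (KO). Il7, a niche cytokine, was the 1 below, with 23 and 24 counts (WT) and 16 and 20 counts (KO).

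Among 4 tested endothelial genes, 1 was higher (Vwf, with 434 and 313 counts (WT) and 919 and 687 counts (KO)), and Tek, Emcn and Robo4 were at 0 in every library. The 9 endothelial genes summed to 33.8 and 25.0 CPM in WT and 57.6 and 38.2 in KO, and without Vwf to 7.02 and 5.33 in WT and 8.31 and 3.35 in KO, which overlapped. Of 7 genes of blood stem and progenitor cells, 3 were tested and 1 was higher: Cd34, also carried by endothelial and stromal cells, had 54 and 46 counts (WT) and 190 and 150 counts (KO). Meis1 had 22 and 10 counts (WT) and 50 and 42 counts (KO). That list summed to 6.90 and 7.40 CPM in WT and 15.02 and 12.7 in KO, and without Cd34 to 3.57 and 4.52 in WT and 4.83 and 5.08 in KO. Of 10 macrophage genes, 1 was higher and 2 were lower, where 1.99% of all genes tested were lower. Itgam (CD11b) had a log2 fold change of 0.82, C1qb -0.64 and C1qc -0.63, with adjusted p between 0.676 and 0.725 in edgeR's test. The KO libraries were both below the WT libraries in 4 of the 10 (Cd68, C1qa, C1qb and C1qc), beside 16.9% of all genes tested. The macrophage list summed to 27477 and 24814 CPM in WT and 21685 and 24811 in KO, most of it Lyz2. Without Lyz2 it summed to 5622 and 6150 CPM in WT and 4827 and 5329 in KO, where both KO libraries were lower.

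**Figure D4:**
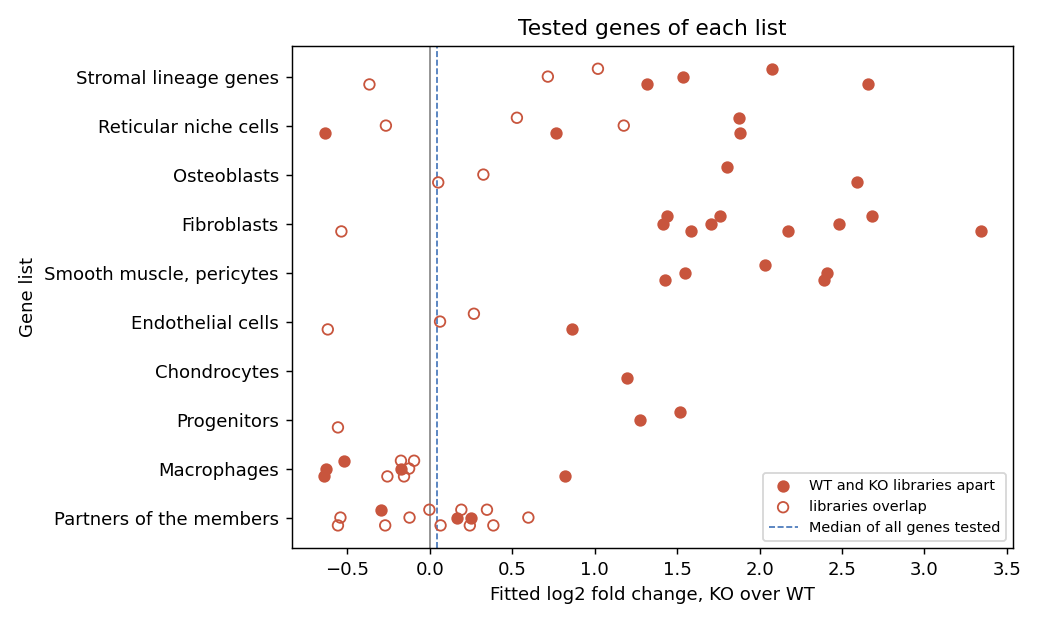
Fitted log2 fold change, KO over WT, of every tested gene of each list (filled, libraries of the genotypes apart; open, overlapping), with the median of all genes tested as a dashed line. Genes of fibroblasts and of smooth muscle cells and pericytes lie mostly above 1, like Cxcl12, Pdgfra, Prrx1 and Twist1, while the partners of the members lie on both sides of 0 and 9 of 10 macrophage genes lie below it.

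The genes whose pattern over the 4 libraries was most like the mean pattern of the 7 tested members were Kalrn, B3gnt7 and Pde10a. The measure was the root mean square difference of centred log2 CPM, at 0.0543, 0.0664 and 0.0696. Kalrn had 8 and 9 counts (WT) and 28 and 23 counts (KO), and B3gnt7 had 30 and 34 in WT and 90 and 94 in KO. Their log2 fold changes were 1.32 for Kalrn, 1.27 for B3gnt7 and 1.32 for Pde10a, with adjusted p between 0.386 and 0.674 in edgeR's quasi-likelihood test. The likeness is over 4 libraries only and was sought among all genes tested.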

How the data were processed

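Total RNA of cultured macrophages was sequenced by Illumina RNA-seq. The authors filtered reads with Seqtk, aligned them with HISAT2 (2.0.4) and counted fragments per gene with StringTie (1.3.3b), per the submitters' processing notes and the study's methods. The deposited table holds 34745 genes with raw whole-number counts per library. It also holds FPKM, which the authors scaled by library total and gene length. The labels name the build mm39, but 7 of the 10 members have the start and end that GENCODE M21 gives them on GRCm38, and Kitl, Sp7 and Twist1 differ slightly, so coordinates are given on GRCm38 as deposited. Whether strand was used in counting is not given in the sources used here.

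The tests were run with edgeR 4.0.16 under R 4.3.3. The filter on low counts, edgeR's filterByExpr with a minimum count of 10 and a minimum total of 15, left 12418 genes. Libraries were scaled by TMM, genotype was the only term, and genes were tested with the quasi-likelihood test, two-sided, with Benjamini-Hochberg adjustment over all genes tested. SE and 95% intervals came from its F statistic. CPM used TMM-scaled totals, and log2 ratios between single libraries had 0.5 counts added. Ratios of summed counts are per TMM-scaled library total. The scripts were tested on simulated data. Alternatives were DESeq2 1.42.0 size factors and Wald test, edgeR's exact test, other filters on low counts, no minimum fold, a gene length correction, a replicate block, and leaving out each library. The members, marker lists and tests were chosen with earlier results of these data known. Genes named from a list were those with the largest fold whose genotypes did not overlap (up to 4), or its most abundant genes, plus Cxcr4, Kit, Pdgfa, Pdgfb, Adgre1, Csf1r and Lyz2, and genes that make up a count of 5 or fewer or that were at 0 or carried a list's sum, which were named after their values were seen. No sample was left out.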

Additional observations from a re-analysis of the deposited data

How the results depend on the processing

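The main test called 0 genes and 0 members. Other tests called more: 174 genes and 2 members with edgeR's exact test, and 181 genes and 2 members with DESeq2's Wald test. With the replicate block, the number as a term of the model, 664 genes and 3 members (Cxcl12, Pdgfra and Prrx1) were called, 494 of the genes higher (3.98% of those tested). With the replicate block and the gene length correction together, 368 genes and 2 members were called. The 2 members were Cxcl12 and Pdgfra each time. Across genes, libraries with the same number deviated together from the means of their genotypes (correlation 0.710). The labels do not say that a number marks a shared mouse, culture or day, and 2 pairs are too few to settle it. A mean CPM filter of 1, no filter at all, DESeq2 size factors, the length correction alone and no minimum fold each called 0 genes and 0 members. Leaving out 1 library called between 0 and 1 genes and 0 members, with the lone sample of a genotype assumed to vary like the others.

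Of 83 log2 fold changes of single members under an alternative, 70 kept direction and side of the threshold, 9 passed it and 4 turned sign, all 4 with a library left out. Those ranges were -0.99 to 0.22 for Kitl, -0.40 to 3.15 for Pdgfrb and -0.025 to 1.20 for Runx2. The median over the members moved by less than the spread between replicate numbers under each alternative. Depth limits Lepr, Sp7 and Alpl, which had too few counts to be tested. A count of 0 in a library allows a level of up to 3 counts.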
